A study of Homo sapiens with 24 samples.

Results

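The genes described are 7 of the RAS, RAF, MEK and ERK chain (NRAS, HRAS, ARAF, BRAF, MAP2K1, MAP2K2 and MAPK3), chosen by name from the known cascade, out of 60230 genes in the deposited tables. RNA was sequenced from 24 tumors grown in mice from the human cell line AsPC-1, which derives from a pancreatic ductal adenocarcinoma, with 4 animals in each of 6 groups. Animals of 5 groups received IK-595, which the series title calls a MEK-RAF molecular glue, at 6 mg/kg by mouth for 3 doses on a QOD schedule, and their tumors were taken 2, 4, 8, 24 and 48 h after the last dose. The remaining group received 3 doses of vehicle, 5% DMSO in 95% PEG400, and was taken at 2 h only. Every tumor comes from this 1 cell line, and a mouse host supplies the stroma of such tumors. Vehicle tumors exist at 2 h alone, so for the later tumors the effect of the drug and of the hour of collection cannot be told apart. No source used here gives the age, sex or strain of the mice.

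RAS proteins are small GTPases at the inner face of the plasma membrane that, bound to GTP, recruit and activate RAF kinases. RAF phosphorylates MEK, MEK phosphorylates ERK, and ERK acts on cytoplasmic and nuclear substrates, among them transcription factors that drive immediate early genes and feedback inhibitors of the chain itself. Each step is held by closely related genes, and pancreatic ductal adenocarcinoma is known for activating mutations of RAS. The control of the chain is largely by GTP loading and phosphorylation, which RNA does not measure.

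The paralogs differ enough in sequence for most reads to be assigned to 1 of them. For the RAF and MEK pairs the coding stretch around the longest identical run is shown, since the paralog ratios below rest on that separation. The stretches run 5′ to 3′ and are cut around the longest run of identical bases in the coding sequences of GRCh38 (GENCODE). Capitals mark the bases at which the paralogs differ. BRAF and ARAF share at most 21 bases in a row, inside a stretch of 81 coding bases of which 29 differ. The stretch lies in the kinase domain.
BRAF: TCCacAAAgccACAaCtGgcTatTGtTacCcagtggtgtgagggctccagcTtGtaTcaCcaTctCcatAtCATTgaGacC
ARAF: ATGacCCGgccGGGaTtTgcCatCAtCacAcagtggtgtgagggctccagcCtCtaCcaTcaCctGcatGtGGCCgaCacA

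MAP2K1 and MAP2K2, which encode MEK1 and MEK2, are closer to each other, with a shared run of 38 bases. It lies in the stretch that encodes the activation loop, which RAF phosphorylates. Over 98 coding bases there, 15 differ.
MAP2K1: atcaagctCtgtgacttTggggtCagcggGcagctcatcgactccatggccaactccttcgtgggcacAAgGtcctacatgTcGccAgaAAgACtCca
MAP2K2: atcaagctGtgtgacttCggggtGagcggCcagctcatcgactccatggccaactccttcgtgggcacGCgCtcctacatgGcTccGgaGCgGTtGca

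Words of 31 bases that a gene's transcripts share with another gene mark where counts are less certain. They made up 0.05% of the words of HRAS, 0.03% of ARAF and 1.02% of NRAS. For BRAF the share was 9.96%, led by NDUFB2, a gene of the respiratory chain that overlaps it on the opposite strand by 3464 bases. For MAP2K1 it was 13.9%, led by the antisense gene AC116913.1 and the pseudogene MAP2K1P1, and for MAP2K2 it was 12.5%. Whether the authors counted by strand is not given, so reads of BRAF and NDUFB2, or of MAP2K1 and its antisense partners, may not be fully separated in their shared exons. NDUFB2 stood at 195 to 450 TPM (transcripts scaled to the total, a level per length), and its log2 fold changes against vehicle lay between -0.20 and 0.07 over the 5 times, with no call.

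Depth ran from 10516000 to 20639340 estimated counts per tumor, and all 7 genes passed the filter on low counts, with at least 164 counts (HRAS in 1 tumor at 4 h) in every tumor. Of 10 ductal epithelial markers none was at 0, with medians of 2808 TPM for KRT8, 2357 TPM for KRT19 and 824 TPM for EPCAM over the 24 tumors, except KRT7, at a median of 4.46 TPM. Some tumors stood apart. Tumor 1 at 2 h held 2428 TPM of summed muscle, adipocyte and red cell markers, against 5.08 to 11.3 TPM in the other IK-595 tumors of that time and 14.3 to 191.1 TPM in vehicle tumors. Single tumors at 4, 8 and 24 h reached 1289, 1759 and 1740 TPM of the same list and were kept throughout. Tumor 2 at 4 h, the shallowest, held 10237 TPM of fibroblast and pericyte markers, against 450 to 1102 TPM in the others at 4 h. In tumor 1 at 24 h mitochondrially encoded genes took 31.4% of counts, against 12.1% to 14.4% in the others at 24 h. Results are given with all 24 tumors, and without these 3, a choice made after seeing the data, where that ends or makes a call against vehicle. None of the 3 is a vehicle, 8 h or 48 h tumor. Against vehicle at 8 and 48 h their removal thus changes the shared fit and not the tumors compared. Mitochondrial genes took 11.8% to 18.3% of counts in IK-595 tumors at 2 h, 7.4% to 15.4% at 4 h, 18.3% to 23.4% at 8 h, 12.1% to 31.4% at 24 h and 11.6% to 12.8% at 48 h, against 8.0% to 10.8% in the vehicle tumors, so at every time but 4 h all IK-595 tumors lay above all vehicle tumors.

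In levels per length, MAPK3, which encodes ERK1, and MAP2K2 were the most abundant of the 7 genes in every group, and BRAF was the least abundant. MAPK3 averaged 98.4 to 135.5 TPM over the 5 IK-595 groups, against 106.6 ± 4.81 TPM in the vehicle group (SD, n = 4). MAP2K2 averaged 83.2 to 106.9 TPM in the IK-595 groups, against 90.7 ± 10.1 TPM in the vehicle group. The ranges of these leading genes overlapped at 2, 8 and 24 h and did not at 4 h, at 48 h or in vehicle tumors. HRAS, MAP2K1 and ARAF formed the middle, and ARAF overlapped MAP2K1 or HRAS in every group. NRAS was second lowest in every group. NRAS and BRAF did not overlap except at 24 h, and NRAS overlapped ARAF at 24 h and in vehicle tumors. Within each pair the order of mean levels was the same in all 6 groups, with HRAS above NRAS, ARAF above BRAF and MAP2K2 above MAP2K1.

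**Figure D1:**
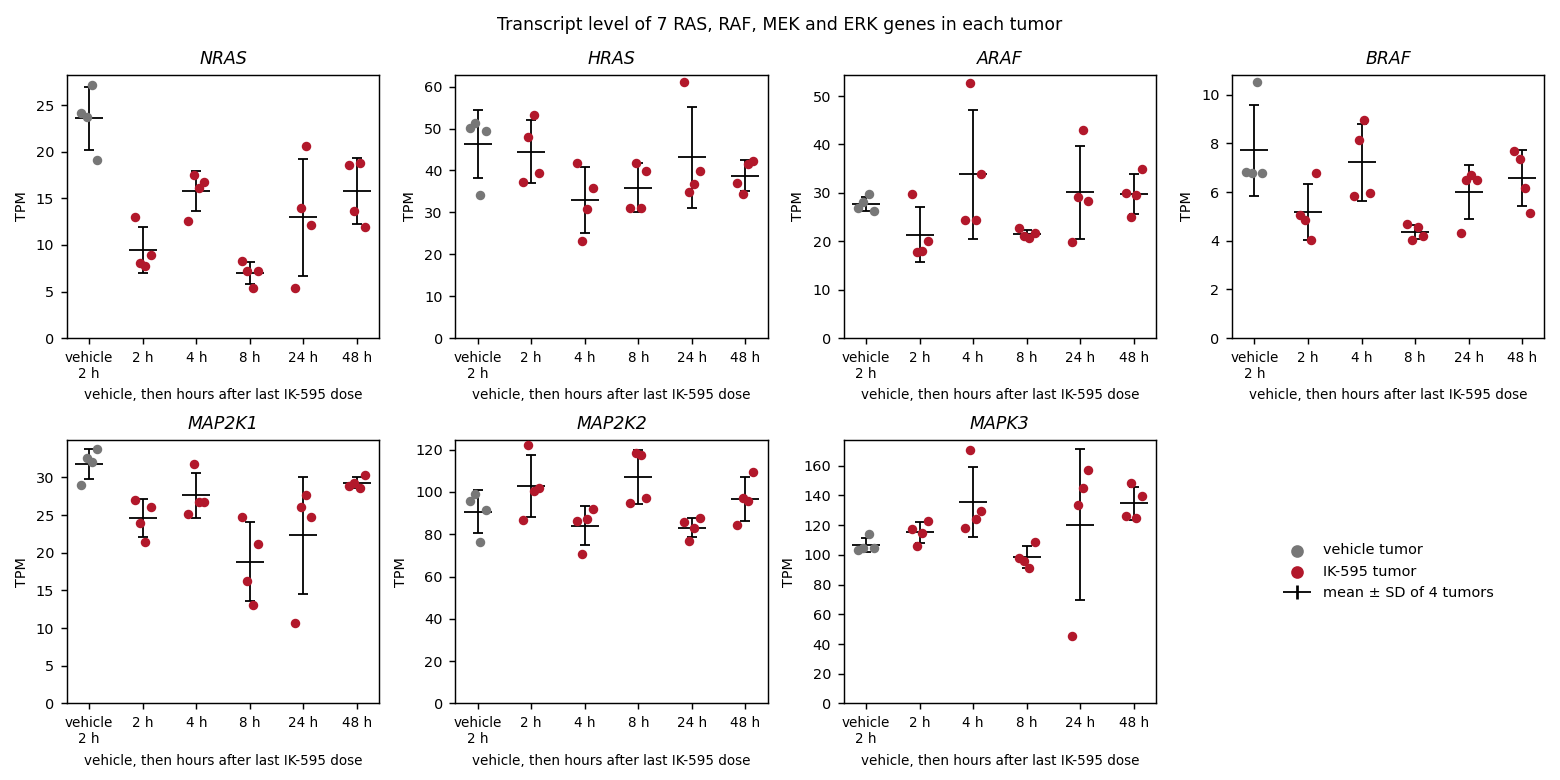
Level of each gene in every tumor, in TPM on an axis from 0, with vehicle tumors (grey) and the IK-595 tumors of each time (red). Black bars are the mean ± SD of 4 tumors. NRAS lies between 5.33 and 8.29 TPM at 8 h and between 19.1 and 27.2 TPM in vehicle tumors, while MAPK3 in tumor 1 at 24 h, at 45.3 TPM, lies below every other tumor.

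NRAS, 1 of the RAS GTPases, was lower in IK-595 tumors at 2, 4, 8 and 24 h, and no member rose against vehicle at any time. BRAF, the RAF with the highest intrinsic kinase activity, and MAP2K1 fell at 8 h, and MAP2K1 also at 24 h. HRAS, ARAF, MAP2K2 and MAPK3 did not pass at any time by the test as run, though calls of MAP2K2 and MAPK3 depended on settings and tumors given below. That made 7 calls in 35 tests of a member against vehicle, all of them falls. A call is an adjusted p under 0.05 by edgeR's quasi-likelihood test with Benjamini-Hochberg adjustment over the 18242 genes tested, and every adjusted p of a gene below is of that kind.

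Many other genes moved too. At 2 h 0 members rose and 1 fell, while 13.4% of all tested genes rose and 13.6% fell. At 4 h it was 0 risen and 1 fallen, against 6.74% and 8.39% of all genes. At 8 h it was 0 and 3, against 20.6% and 23.7%. At 24 h it was 0 and 2, against 13.7% and 13.8%, and at 48 h 0 and 0, against 5.52% and 4.46%. With 7 members a single gene moves such a share widely, so the counts of fallen members are not read as particular to the chain. The members' median log2 fold change was -0.25, -0.12, -0.12, -0.14 and 0.01 at the 5 times, against 0.05, 0.03, 0.07, 0.06 and -0.01 over all genes tested. With unadjusted p values, 1 member would pass as risen at 2 h and 1 at 8 h, MAP2K2 both times, and none at 4 or 24 h, and DESeq2 called 1 risen at 8 h. With all 24 tumors fitted together, no member was called at 48 h by edgeR, DESeq2 or limma. An edgeR fit of only the groups compared called NRAS (-0.47, adjusted p = 0.0342) and MAPK3 (0.45, adjusted p = 0.0159) at 48 h. In the reported fit the unadjusted edgeR p values at 48 h were 0.0137 for MAPK3 and 0.0139 for NRAS. They were at least 0.283 for the other 5 members.

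**Figure D2:**
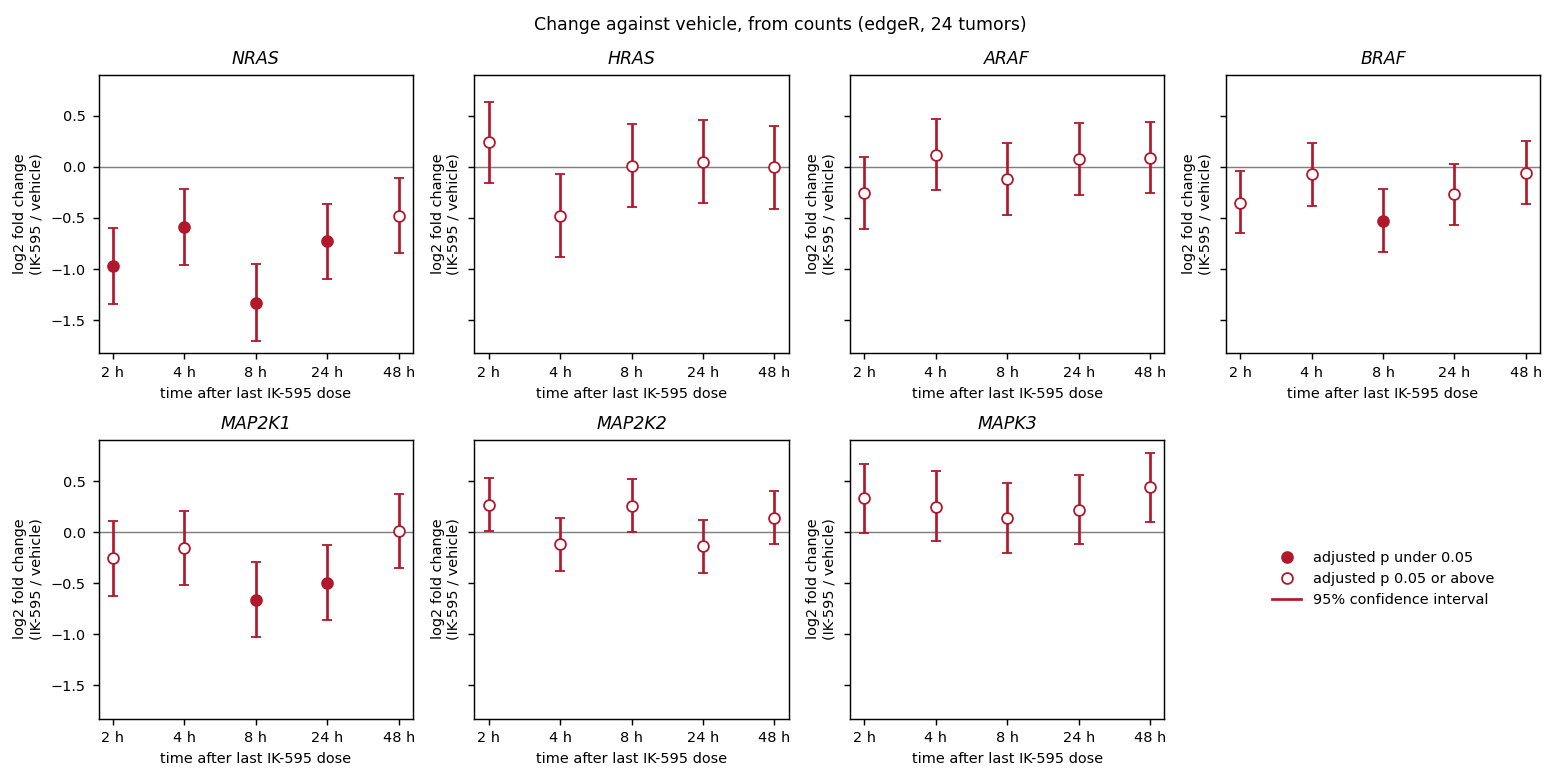
Log2 fold change of each gene in IK-595 tumors over vehicle tumors at each time, with 95% confidence intervals from the edgeR fit over 24 tumors. Filled points have an adjusted p under 0.05. The 7 filled points, 4 for NRAS, 2 for MAP2K1 and 1 for BRAF, all lie below 0.

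NRAS (chr1:114704469-114716894, minus strand, GRCh38) stood at 13, 8.1, 7.77 and 8.93 TPM in the IK-595 tumors at 2 h, against 24.2, 23.7, 27.2 and 19.1 TPM in the vehicle tumors. It stood at 12.6, 17.5, 16.1 and 16.8 TPM at 4 h and at 8.29, 7.17, 5.33 and 7.18 TPM at 8 h. At these 3 times every IK-595 tumor lay below every vehicle tumor. At 24 h the values were 5.38, 14, 20.6 and 12.1 TPM, with tumor 3 inside the vehicle range. At 48 h they were 18.6, 13.7, 18.8 and 11.9 TPM, all below the vehicle tumors in TPM but overlapping them by 1 tumor in scaled counts.

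The fall of NRAS was largest at 8 h, where the log2 fold change was -1.33 ± 0.18 (SE, adjusted p = 6.35e-06), a level of 0.40 of that in vehicle. It was -0.97 ± 0.18 at 2 h (adjusted p = 0.000621) and -0.73 ± 0.18 at 24 h (adjusted p = 0.00469). At 4 h it was -0.59 ± 0.18 (adjusted p = 0.026), a call lost without any 1 of 6 of the 8 tumors compared (adjusted p of up to 0.103). At 48 h NRAS had -0.48 ± 0.18 (adjusted p = 0.0982). It passed there without the 3 tumors that stood apart (-0.47, adjusted p = 0.0245) and in a fit of only the groups compared (adjusted p = 0.0342). None of the 3 is a 48 h or vehicle tumor, so the tumors compared were the same. The 2, 8 and 24 h calls held without each tumor in turn. On the TPM scale the 2 h and 8 h differences were larger, -1.33 and -1.74 with a pseudocount of 0.1. The counts per TPM of NRAS, relative to the median tested gene of each tumor, were also higher than in vehicle. The log2 difference was 0.16 at 2 h and 0.17 at 8 h. NRAS has 1 transcript in the GENCODE annotation used here, so this value is not read as a longer transcript. The part of this shift in the result was not tested. Summed TPM of 8 myeloid markers, of which TYROBP was at 0 in every tumor of those groups, was 335.2 to 433.2 at 2 h and 217.9 to 314.3 at 8 h in the IK-595 tumors, against 503.2 to 781.2 in vehicle tumors. The markers did not share 1 direction. None of the 7 tested was called at 2 h, against 13.4% risen and 13.6% fallen of all genes. At 8 h LYZ and CD68 (-0.73 ± 0.26) fell while ITGAM rose (1.29 ± 0.38), against 20.6% risen and 23.7% fallen of all genes. The median log2 fold change of these 7 markers was -0.24 at 2 h and 0.42 at 8 h, against 0.05 and 0.07 over all genes. The part of these markers, and of the mitochondrial share given above, in the NRAS values was not tested. The markers are human genes, counted in tumors of a human cell line with a mouse stroma. Their sum is therefore not read as a count of myeloid cells. In bulk RNA fewer cells of a type and less RNA per cell cannot be told apart.

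HRAS (chr11:532242-537287, minus strand), the paralog of NRAS, was not called against vehicle. It stood at 37.3 to 53.3 TPM at 2 h, 23.2 to 41.8 TPM at 4 h, 31 to 41.9 TPM at 8 h, 34.8 to 61.0 TPM at 24 h and 34.5 to 42.2 TPM at 48 h, against 50.2, 51.3, 34.2 and 49.5 TPM in the vehicle tumors. The groups overlapped at every time. The log2 fold change was lowest at 4 h, -0.48 ± 0.20 (edgeR adjusted p = 0.106), and the interval at 8 h ran from -0.39 to 0.42. At 2, 8 and 24 h its sign depended on the scale, with -0.05, -0.36 and -0.12 in TPM against 0.24, 0.01 and 0.05 in counts.

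The log2 ratio of NRAS to HRAS within a tumor, which does not depend on how tumors are scaled to each other, was -1.52, -2.57, -2.78 and -2.14 in IK-595 tumors at 2 h, against -1.05, -1.11, -0.33 and -1.37 in vehicle tumors. At 8 h it was -1.90, -2.55, -2.54 and -2.47. At both times all 4 IK-595 tumors lay below all vehicle tumors. The mean difference was -1.28 ± 0.36 at 2 h and -1.40 ± 0.27 at 8 h (SE, exact two-sided permutation p = 0.0286, the smallest that 70 assignments allow, adjusted p = 0.0857 over 15 ratio tests). Neither passed the adjustment. A ratio at that smallest p could pass only if many of the 15 tests reached it too. Missing the adjustment is thus not read as no difference, here or for the pairs below. At 4 h the NRAS to HRAS ratio differed by -0.07 ± 0.35, at 24 h by -0.87 ± 0.62 and at 48 h by -0.36 ± 0.29.

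Of the RAF genes, BRAF (chr7:140719327-140924928, minus strand) stood at 4.67, 4.01, 4.55 and 4.21 TPM in the IK-595 tumors at 8 h, against 6.81, 6.78, 10.5 and 6.77 TPM in the vehicle tumors. All 4 lay below the vehicle tumors. The log2 fold change was -0.53 ± 0.15 (adjusted p = 0.00584), and the call held without each tumor in turn. At 2 h BRAF stood at 5.04, 4.86, 4.03 and 6.78 TPM, with -0.35 ± 0.15 (adjusted p = 0.0834), and passed with mitochondrial genes left out of the scaling (adjusted p = 0.0498). At 24 h it stood at 4.33, 6.51, 6.69 and 6.49 TPM, below all vehicle tumors in TPM but overlapping them in scaled counts, with -0.27 ± 0.15 (adjusted p = 0.177). At 4 and 48 h it had -0.07 ± 0.15 and -0.06 ± 0.15, with tumors of 5.82 to 8.97 TPM and 5.15 to 7.68 TPM.

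ARAF (chrX:47561100-47571920, plus strand), a RAF of lower kinase activity, was not called. It stood at 17.7 to 29.7 TPM at 2 h, 24.3 to 52.6 TPM at 4 h, 20.6 to 22.8 TPM at 8 h, 19.9 to 42.9 TPM at 24 h and 25.0 to 35.0 TPM at 48 h, against 26.9, 28.1, 29.7 and 26.2 TPM in the vehicle tumors. At 8 h all 4 IK-595 tumors lay below the vehicle tumors in TPM, but they overlapped in scaled counts (-0.12 ± 0.17, edgeR adjusted p = 0.588). The log2 fold changes lay between -0.26 at 2 h and 0.12 at 4 h. The 52.6 TPM came from tumor 2 at 4 h, the tumor with 10237 TPM of fibroblast and pericyte markers, and without it the 4 h value was -0.11. Of those 11 markers 3 rose at 4 h and none fell, against 6.74% risen and 8.39% fallen of all genes. None of the 11 was called at another time, and none was at 0 in every tumor of a group. The BRAF to ARAF log2 ratio was lower in all 4 IK-595 tumors than in every vehicle tumor at 8 h (-0.43 ± 0.14) and at 24 h (-0.42 ± 0.18), each with an exact permutation p = 0.0286 and an adjusted p = 0.0857.

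Of the MEK genes, MAP2K1 (chr15:66386817-66492312, plus strand) stood at 24.8, 16.3, 13 and 21.2 TPM in the IK-595 tumors at 8 h, against 29, 32.6, 32.1 and 33.7 TPM in the vehicle tumors. At 24 h it stood at 10.7, 26.1, 27.6 and 24.7 TPM. All tumors of both times lay below the vehicle tumors in TPM, and in scaled counts 1 of the 24 h tumors did not. The log2 fold change was -0.66 ± 0.18 at 8 h (adjusted p = 0.00444) and -0.50 ± 0.18 at 24 h (adjusted p = 0.0385). The 8 h call held without each tumor in turn. The 24 h call was lost without any 1 of 7 of the 8 tumors compared, and the fall there was -0.33 without tumor 1 (adjusted p = 0.142). Without the 3 tumors that stood apart the 24 h value was -0.33 and was not called (adjusted p = 0.0789). At 2, 4 and 48 h MAP2K1 had -0.25 ± 0.18, -0.15 ± 0.18 and 0.01 ± 0.18, with tumors of 21.4 to 27.0 (all below the vehicle tumors), 25.1 to 31.8 and 28.6 to 30.3 TPM.

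MAP2K2 (chr19:4090321-4124129, minus strand) was not called against vehicle by the edgeR test as reported, with TMM scaling, the reported low-count filter and all 24 tumors. At 8 h its call depended on the setting. It stood at 86.6, 122.1, 100.7 and 101.8 TPM in the IK-595 tumors at 2 h and at 94.6, 118.4, 117.5 and 97.1 TPM at 8 h, against 95.9, 99.0, 76.3 and 91.5 TPM in the vehicle tumors. The groups overlapped at both times. The log2 fold change was 0.27 ± 0.12 at 2 h (adjusted p = 0.115) and 0.26 ± 0.12 at 8 h (adjusted p = 0.0947), and without the 3 tumors that stood apart MAP2K2 passed at both, with 0.37 (adjusted p = 0.0138) and 0.26 (adjusted p = 0.0437). None of the 3 is an 8 h or vehicle tumor, and MAP2K2 had 0.26 at 8 h either way. At 8 h it also passed with all 24 tumors under upper-quartile scaling (0.40, adjusted p = 0.0177), with at least 10 counts in every tumor (0.34, adjusted p = 0.0259) and by DESeq2 (0.29, adjusted p = 0.044), and in a fit of only the groups compared (0.30, adjusted p = 0.0441). At 4, 24 and 48 h it had -0.12, -0.14 and 0.14. The MAP2K1 to MAP2K2 log2 ratio at 8 h was -1.93, -2.86, -3.18 and -2.19 in IK-595 tumors, against -1.73, -1.60, -1.25 and -1.44 in vehicle tumors, a difference of -1.04 ± 0.31 (exact permutation p = 0.0286, adjusted p = 0.0857). In geometric means that is 0.172 TPM of MAP2K1 per TPM of MAP2K2 at 8 h, against 0.352 in vehicle.

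**Figure D3:**
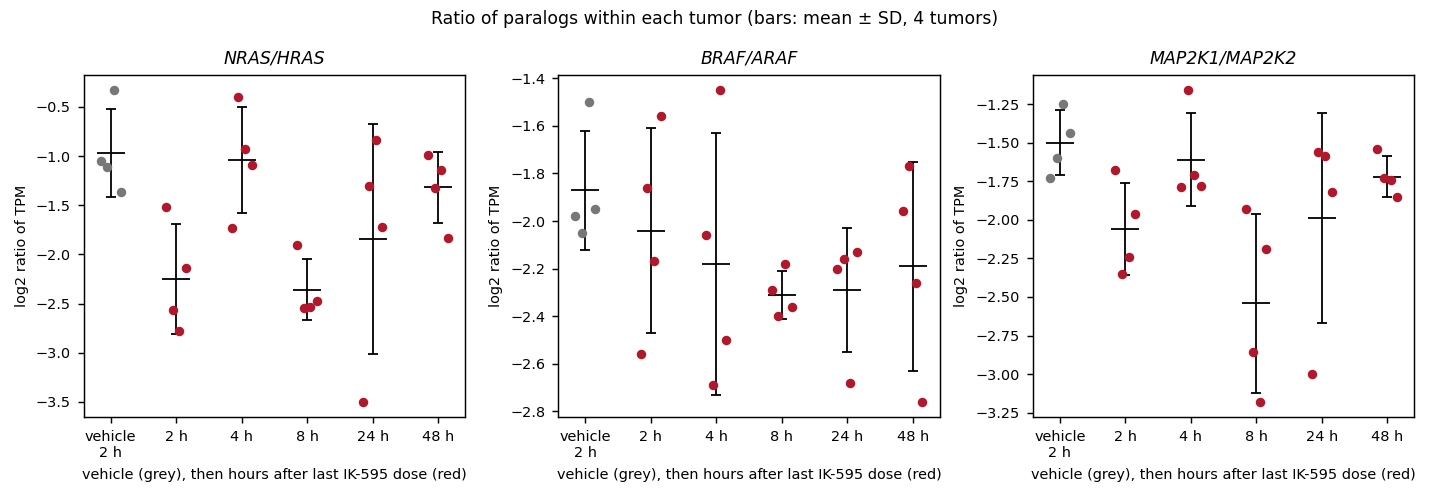
Log2 ratio of TPM between paralogs in each tumor, vehicle (grey) and then the IK-595 times (red), with the mean ± SD of 4 tumors. At 8 h the IK-595 tumors lie below all vehicle tumors for all 3 ratios, with mean differences of -1.40, -0.43 and -1.04.

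MAPK3 (chr16:30114105-30123506, minus strand) had a positive log2 fold change at all 5 times, from 0.14 at 8 h to 0.44 at 48 h, and no call with all 24 tumors. It stood at 126.1, 148.1, 124.9 and 139.5 TPM in the IK-595 tumors at 48 h, against 103.2, 104.4, 113.7 and 104.8 TPM in the vehicle tumors. The 48 h tumors all lay above the vehicle tumors, with 0.44 ± 0.17 (edgeR adjusted p = 0.0973, 95% interval 0.10 to 0.78). At 24 h it stood at 45.3, 133.6, 145.0 and 157.1 TPM, with 3 tumors above the vehicle range and tumor 1 below it, and had 0.22 ± 0.16 (adjusted p = 0.334), or 0.41 without tumor 1 (adjusted p = 0.0158). Without the 3 tumors that stood apart MAPK3 passed as risen at 2 h (0.40, adjusted p = 0.00304), at 24 h (0.42, adjusted p = 0.00343) and at 48 h (0.44, adjusted p = 0.00212). None of the 3 is a 48 h or vehicle tumor, and MAPK3 had 0.44 at 48 h either way. In fits of only the groups compared it passed at 2 h (0.33, adjusted p = 0.0271) and at 48 h (0.45, adjusted p = 0.0159). At 4 h it stood at 118.1, 170.4, 124.1 and 129.5 TPM, all above the vehicle tumors, with 0.25 ± 0.17 (adjusted p = 0.316). At 8 h the value was -0.12 in TPM.

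**Figure D4:**
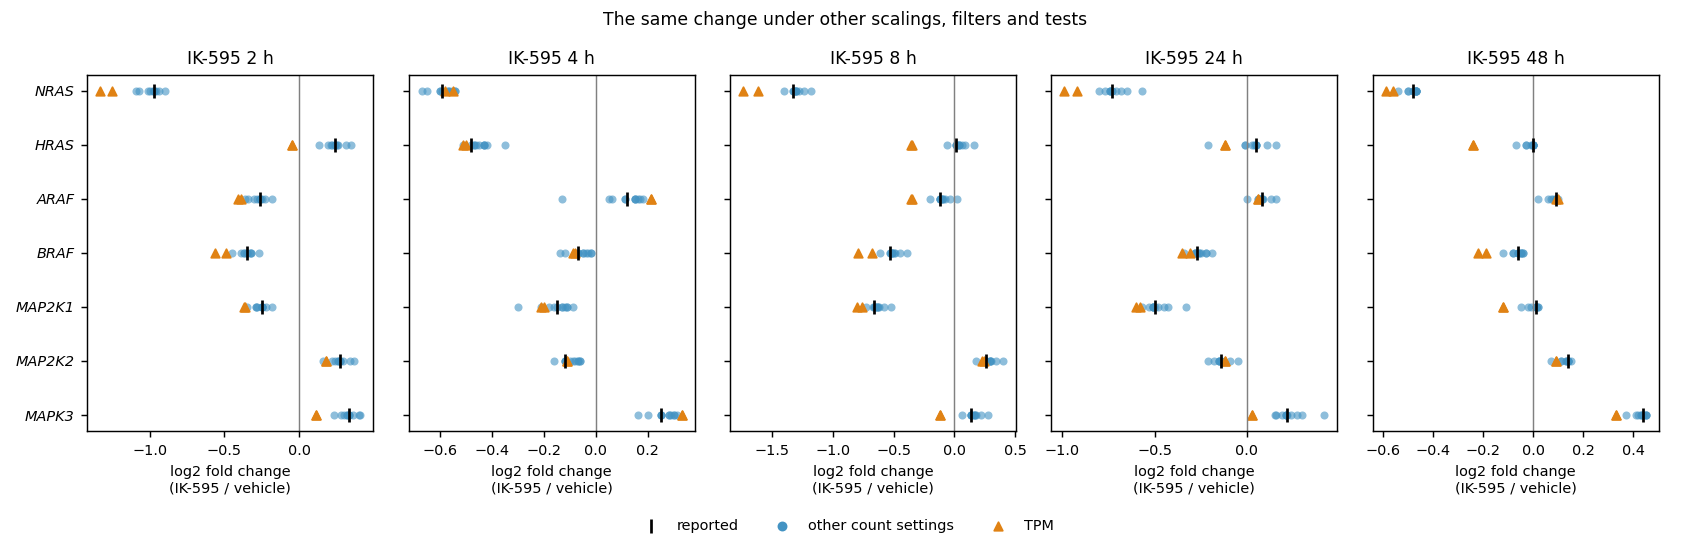
Log2 fold change of each gene in IK-595 tumors over vehicle at each time, as reported (black bar), under the other count settings (blue) and in TPM (orange triangles); horizontal scales differ between panels. NRAS lies below 0 at all 5 times under every setting drawn, from -1.74 to -1.18 at 8 h. HRAS, ARAF and MAPK3 cross 0 at 8 h.

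Between consecutive times after IK-595, 7 of 28 member tests passed. At 4 h against 2 h, 0 members rose (2 at an unadjusted p under 0.05) and 2 fell, against 6.89% and 9.00% of all genes. The log2 difference was -0.71 ± 0.20 for HRAS (adjusted p = 0.0192) and -0.39 ± 0.13 for MAP2K2 (adjusted p = 0.0397). At 8 h against 4 h, 1 member rose and 3 fell, against 11.6% and 15.5% of all genes. NRAS (-0.73 ± 0.18, adjusted p = 0.00622), BRAF (-0.46 ± 0.15, adjusted p = 0.0263) and MAP2K1 (-0.51 ± 0.18, adjusted p = 0.0375) fell, and MAP2K2 rose (0.38 ± 0.13, adjusted p = 0.029). At these 2 intervals the calls other than that of NRAS depended on single tumors. Leaving out each of 8 tumors in turn kept the call in 4 fits for BRAF, 3 for MAP2K1 (adjusted p of up to 0.163) and 5 for MAP2K2 at 8 h against 4 h, and in 5 fits for HRAS and 2 for MAP2K2 at 4 h against 2 h. Without the 3 tumors that stood apart, BRAF (-0.39, adjusted p = 0.0692) and MAP2K1 (-0.36, adjusted p = 0.0508) were not called at 8 h against 4 h.

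At 24 h against 8 h, NRAS rose by 0.60 ± 0.18 (adjusted p = 0.0468) and no member fell (1 at an unadjusted p under 0.05, MAP2K2), against 5.30% risen and 1.58% fallen of all genes. That NRAS call was lost without any 1 of 7 of the 8 tumors compared, and the value was 0.36 without tumor 3 at 24 h. At 48 h against 24 h, 0 members rose and 0 fell, against 2.47% and 1.60% of all genes. By unadjusted p, 2 members would pass there, and the smallest was 0.00847, for MAP2K1, whose 48 h tumors all lay above its 24 h tumors (0.51 ± 0.18, adjusted p = 0.105). An F test over the 5 times called NRAS (adjusted p = 0.00633), MAP2K2 (adjusted p = 0.0187) and MAP2K1 (adjusted p = 0.026), 3 of 7 members, against 37.4% of all genes. Of these 7 calls between times, the fall of NRAS from 4 to 8 h held without each tumor in turn and under each of the other settings run.

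The members did not move as 1 block across the 24 tumors. Over their 21 pairs the Pearson r of log2 CPM (counts scaled to library size) was above 0 for 12 and below 0 for 9. NRAS, BRAF and MAP2K1 went together, with r of 0.67 for NRAS and BRAF, 0.79 for NRAS and MAP2K1 and 0.60 for BRAF and MAP2K1. HRAS and MAP2K2 went together (r = 0.66), and both were negative with those 3 genes (-0.62 to -0.23). These values share the scaling and depth of each tumor and the group differences given above, and carry no test. Among 9904 well expressed protein-coding genes, those most like NRAS were NMD3 (r = 0.97), IPO7 (0.96) and NUDCD1 (0.96), and those most like MAP2K1 were UBE2Z (0.97), SPRYD3 (0.95) and H3-3B (0.94), over 24 tumors. For BRAF they were KLHL28 (0.93), SPOPL (0.90) and STRN (0.90), for HRAS FAAP20 (0.88), NDUFAF3 (0.87) and PELP1 (0.87), and for MAP2K2 COX7C (0.89), B3GAT3 (0.89) and AGPAT2 (0.88). MAPK3 went with NBDY (0.92), RAB1B (0.86) and DDRGK1 (0.85). ARAF went with LTBP2 (0.83), AKIRIN1 (0.82) and ACTA2 (0.79), the last a marker of the fibroblast and pericyte list.

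The genes next to the members did not all follow them. TIPIN, a replication fork factor, starts 70 bases upstream of MAP2K1 on the opposite strand in GENCODE. The nearest RefSeq start of MAP2K1 lies 95 bases further downstream. The stretch between the GENCODE starts is shown because both genes are annotated there to start at its ends. It is chr15:66386747-66386816 (plus strand), 5′ to 3′ in the direction of MAP2K1, from the RefSeq promoter table of GRCh38.p14, and capitals mark a CCAAT motif on the opposite strand.
MAP2K1 upstream: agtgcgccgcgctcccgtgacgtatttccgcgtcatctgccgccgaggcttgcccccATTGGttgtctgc

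Of 6 motifs searched on both strands (the SP1 box GGGCGG, the ETS core CCGGAAG, the full CRE TGACGTCA, the E-box CACGTG, the AP-1 site TGANTCA and the CCAAT box, none of which contains another), the CCAAT box is the only 1 in these 70 bases, and 34.6% of 35116 promoter windows of 300 bases hold it. The 300-base RefSeq window of MAP2K1 also holds 3 SP1 boxes, a motif found in 45.0% of those windows. TIPIN fell at 8 h (-1.14 ± 0.32, adjusted p = 0.0058) and 24 h (-1.22 ± 0.32, adjusted p = 0.00673), like MAP2K1. It also fell at 2 h (-1.39 ± 0.32, adjusted p = 0.00311) and 48 h (-1.11 ± 0.31, adjusted p = 0.0253), when MAP2K1 was not called, at a level of 0.783 to 11.9 TPM. LRRC56, 239 bases from HRAS on the opposite strand, rose at 2, 8 and 24 h (0.60, 1.04 and 0.74), when HRAS was not called.

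Other genes of the pathway were counted by role, from lists of general knowledge, by the same edgeR test. Of 9 tested genes of other RAS-family and cascade members, 1 rose and 1 fell at 2 h, 0 and 0 at 4 h, 0 and 3 at 8 h, 1 and 2 at 24 h, and 1 and 0 at 48 h. Over all tested genes 13.4% rose and 13.6% fell at 2 h, 6.74% and 8.39% at 4 h, 20.6% and 23.7% at 8 h, 13.7% and 13.8% at 24 h, and 5.52% and 4.46% at 48 h. KSR1, a scaffold that brings RAF, MEK and ERK together, was the riser at 2 h (0.37 ± 0.13, adjusted p = 0.0442), 24 h (0.47 ± 0.13, adjusted p = 0.0117) and 48 h (0.50 ± 0.13, adjusted p = 0.0171). RRAS2, a RAS-related GTPase, fell at 8 h (-0.50 ± 0.14, adjusted p = 0.0057) and 24 h (-0.56 ± 0.14, adjusted p = 0.00529).

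Of 26 activators, inhibitors and scaffolds of RAS and RAF, 3 rose and 6 fell at 2 h and 0 and 1 at 4 h. It was 4 and 11 at 8 h, 2 and 9 at 24 h, and 2 and 0 at 48 h. Of all genes 13.4% rose and 13.6% fell at 2 h, 6.74% and 8.39% at 4 h, and 20.6% and 23.7% at 8 h. At 24 h it was 13.7% and 13.8%, and at 48 h 5.52% and 4.46%. CNKSR1, a scaffold of RAS signalling, rose at 2 h (0.86 ± 0.17), 8 h (0.85 ± 0.17), 24 h (0.88 ± 0.17) and 48 h (0.82 ± 0.17). LZTR1, an adaptor for the ubiquitination of RAS proteins, rose at the same 4 times by 0.48 to 0.68. The scaffold IQGAP1 had the smallest adjusted p of the fallen genes at 2 h (-1.03 ± 0.22) and 24 h (-1.01 ± 0.22) and also fell at 8 h (-1.54 ± 0.23), where the 14-3-3 gene YWHAZ had the smallest (-1.22 ± 0.17). RASA2, a GTPase-activating protein, was the gene that fell at 4 h (-0.82 ± 0.15). The list's median log2 fold change was -0.26 at 8 h, against 0.07 over all genes.

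Downstream, 11 tested kinases and transcription factors that ERK phosphorylates, or their relatives, were counted. Of these 2 rose and 1 fell at 2 h, 1 and 2 at 4 h, and 3 and 5 at 8 h. At 24 h it was 1 and 3, and at 48 h 2 and 0. Of all genes 13.4% rose and 13.6% fell at 2 h, 6.74% and 8.39% at 4 h, and 20.6% and 23.7% at 8 h. At 24 h it was 13.7% and 13.8%, and at 48 h 5.52% and 4.46%. MKNK1, a kinase that ERK activates, rose at all 5 times (0.42, 0.55, 0.68, 0.71 and 0.43). RPS6KA1, which encodes RSK1, had the smallest adjusted p of the risen genes at 48 h (0.37 ± 0.11, adjusted p = 0.0298). ELK3, an ETS factor, fell at 2 h (-1.10 ± 0.21), 4 h (-0.68 ± 0.21), 8 h (-1.52 ± 0.21) and 24 h (-1.22 ± 0.21), and ELK1 had the smallest adjusted p of the fallen at 4 h (-0.67 ± 0.14).

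In the parallel MAP kinase tiers (JNK, p38, ERK5 and relatives), 1 of 21 tested genes rose and 8 fell at 2 h. Risen and fallen genes were 0 and 2 at 4 h and 0 and 8 at 8 h. At 24 h they were 1 and 6, and at 48 h 1 and 2. Of all genes 13.4% rose and 13.6% fell at 2 h, 6.74% and 8.39% at 4 h, and 20.6% and 23.7% at 8 h. At 24 h it was 13.7% and 13.8%, and at 48 h 5.52% and 4.46%. MAP2K3, which activates p38, fell at 2 h (-0.68 ± 0.12), 4 h (-1.39 ± 0.12), 8 h (-1.20 ± 0.12) and 24 h (-0.33 ± 0.12). MAP3K5 (-1.66 ± 0.17 at 8 h) and MAP3K20 (-0.96 ± 0.15 at 24 h), both kinases of stress signalling, led the fallen at those times, and MAP2K6 at 48 h (-1.35 ± 0.36). MAPK13, a p38 kinase, rose at 2 h (0.99 ± 0.28), 24 h (1.03 ± 0.28) and 48 h (1.48 ± 0.28).

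The transcriptional output of the chain gives a scale for these values. Of 10 MAPK output genes, a list already known to be lower in these tumors, 8, 9, 10, 6 and 2 fell at the 5 times and 0 rose. Over all tested genes 13.6%, 8.39%, 23.7%, 13.8% and 4.46% fell and 13.4%, 6.74%, 20.6%, 13.7% and 5.52% rose. The list's median log2 fold changes were -2.27, -3.64, -3.64, -1.03 and -0.23, against 0.05, 0.03, 0.07, 0.06 and -0.01 over all genes. PHLDA1 had -3.18 ± 0.23 at 2 h, -3.31 ± 0.23 at 8 h and -0.97 ± 0.21 at 48 h, and SPRY4, a feedback inhibitor of the chain, had -6.69 ± 0.39 at 4 h. NRAS had -1.33 at 8 h, when the median of that list was -3.64, and -0.48 at 48 h, when the median was -0.23.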

How the data were processed

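RNA from 24 xenograft tumors was measured as polyA libraries read in pairs on a NovaSeq, per the labels. The authors deposited estimated counts per gene and TPM values. The submitters' processing notes name bcl2fastq 2.17, FastQC 0.12.1, Salmon 0.14.1 and GRCh38.p13. How strand was used, which annotation release was taken and whether mouse reads were removed is not stated, so host reads may be counted under similar human genes. Sample titles gave the groups; the time tag of the IK-595 samples refers to a vehicle dose.

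Estimated counts were rounded, kept by filterByExpr (18242 genes with 99.9% of counts), scaled by TMM and fitted with edgeR 4.0.16 in R 4.3.3 (robust quasi-likelihood, 24 tumors together, no covariate). Contrasts were 5 against vehicle and 4 between consecutive times, with an F test over the 5 times and Benjamini-Hochberg adjustment within each. For log2 ratios of TPM between paralogs, 70 assignments of tumors to groups gave an exact two-sided permutation p, adjusted over 15 tests. Alternatives used DESeq2 1.42.0, limma 3.58.1 and TPM with pseudocounts of 1 and 0.1. The edgeR step was tested on simulated data. Depth was 10516000 to 20639340 counts per tumor. P values measure the spread between animals. Symbols were missing for 11 genes with 0.0003% of counts.

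The 7 genes, the gene lists and the tests were chosen with earlier results of these data known. All members are named. From each other list the text gives, at each time, the called gene with the smallest adjusted p in each direction and the gene called at most times, and for each member the 3 most alike genes of mean log2 CPM of at least 3 (prior count 2). Some genes of these lists are not reported here by name.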

Additional observations from a re-analysis of the deposited data

Results flagged for a closer look

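In 4 of 42 sets of 4 tumors 1 value lay far from the other 3 by Dixon's test, which chance gives in about 1 in 20 sets. Tumor 3 of the vehicle group accounted for 3 of them, with the lowest HRAS (34.2 TPM), the highest BRAF (10.5 TPM) and the highest MAPK3 (113.7 TPM) of its group. The other was BRAF in tumor 1 at 24 h, at 4.33 TPM. Without vehicle tumor 3 the BRAF fall at 8 h was the smallest of the values with 1 tumor left out, -0.36, and kept its call.

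In 7 cases IK-595 tumors of consecutive times differed by the edgeR test of the later against the earlier time, with no vehicle tumors at the later time. They were NRAS (-0.73), BRAF (-0.46), MAP2K1 (-0.51) and MAP2K2 (0.38) at 8 h against 4 h, HRAS (-0.71) and MAP2K2 (-0.39) at 4 h against 2 h, and NRAS (0.60) at 24 h against 8 h, all as log2 differences. MAP2K2 and NRAS differed in both directions. MAP2K2 was lower at 4 h than at 2 h and higher at 8 h than at 4 h. NRAS was lower at 8 h than at 4 h and higher at 24 h than at 8 h.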

How the results depend on the processing

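Each log2 fold change was recomputed under 14 other settings and without each of 8 tumors. The falls of NRAS at 2, 8 and 24 h and of MAP2K1 and BRAF at 8 h kept direction and call under all of these, NRAS at 8 h between -1.74 and -1.18. Counts of members risen or fallen against vehicle moved as follows. At an adjusted p of 0.01, 0 fell at 4 h and 1 at 24 h; scaled by library size alone, and in TPM with either pseudocount, the counts were the same 0 and 1. Upper-quartile scaling gave 1 risen at 8 h and 1 fallen at 24 h, and 10 counts in every tumor or DESeq2 gave 1 risen at 8 h. Leaving mitochondrial genes out gave 2 fallen at 2 h. Fits of only the groups compared gave 1 risen at 2, 8 and 48 h, 1 fallen at 24 h and 1 fallen at 48 h. Removing the 3 tumors that stood apart, chosen after seeing the data, gave 2 risen at 2 h, 1 risen at 8, 24 and 48 h and 1 fallen at 24 and 48 h. At 8 and 48 h none of the 3 is among the tumors compared. With 1 tumor left out, risen members ranged from 0 to 1 at 2, 8 and 24 h and stayed 0 at 4 and 48 h; fallen members stayed 1 at 2 h, 3 at 8 h and 0 at 48 h and ranged from 0 to 1 at 4 h and 1 to 2 at 24 h.

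Between times, the 2 fallen at 4 h against 2 h became 0 at 0.01 and in TPM, and 1 by library size, without mitochondrial genes, without the filter and with only the groups compared. At 8 h against 4 h the 1 risen became 0 at 0.01, by library size, without the filter and in TPM and 2 under upper-quartile scaling and 10 counts in every tumor, and the 3 fallen became 1 at 0.01, under upper-quartile scaling, with only the groups compared and without the 3 tumors. At 24 h against 8 h the 1 risen became 0 at 0.01, under RLE, upper-quartile and library-size scaling, without mitochondrial genes, without the filter, with limma-voom, in TPM and with only the groups compared, and 2 without the 3 tumors; 1 fell under RLE and upper-quartile scaling, without mitochondrial genes, with 10 counts in every tumor, with DESeq2 and without the 3 tumors. With 1 tumor left out these counts ranged from 0 to 2 fallen and 0 to 1 risen (4 h against 2 h), 1 to 3 fallen and 0 to 2 risen (8 against 4 h), 0 to 1 each (24 against 8 h), and 0 fallen and 0 to 1 risen (48 against 24 h). The causes of these moves were not tested.

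Replicate numbers did not pair the tumors (over 60 pairs of same-numbered tumors 20 correlations of deviations exceeded 0.1, mean -0.013). A replicate block gave 1 fallen at 24 h, 1 fallen at 4 h against 2 h, 0 risen at 24 h against 8 h and 2 fallen at 8 h against 4 h, where MAP2K1 lost its call (-0.49, adjusted p = 0.06), and left the other member counts as reported; for ratios its smallest p is 0.125.

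Signs reversed, for values with no call, as follows. HRAS had -0.05 at 2 h in TPM; -0.06 (no filter), -0.35 and -0.36 (TPM) at 8 h; -0.01 (no filter and limma-voom), -0.12 (TPM) and -0.21 (without the 3 tumors) at 24 h; and 0.00 (upper quartile) at 48 h. ARAF had -0.13 at 4 h without the 3 tumors and 0.02 at 8 h (upper quartile), and MAPK3 -0.12 at 8 h in TPM. MAP2K1 at 48 h had -0.05 (library size), -0.01 (without mitochondrial genes), -0.02 (no filter) and -0.12 (TPM). With 1 tumor left out, ranges crossed 0 for ARAF at 4 h (-0.11 to 0.25), 24 h (-0.04 to 0.13) and 48 h (-0.01 to 0.15), BRAF at 4 h (-0.12 to 0.12) and 48 h (-0.12 to 0.11), HRAS at 8 h (-0.08 to 0.06), 24 h (-0.22 to 0.16) and 48 h (-0.09 to 0.04), MAP2K1 at 48 h (-0.04 to 0.07), NRAS/HRAS at 4 h (-0.28 to 0.16) and BRAF/ARAF at 2 h (-0.33 to 0.01).

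The median log2 fold change of all genes depended on the scaling. It was 0.127, 0.208 and 0.15 at 2, 8 and 24 h under upper-quartile scaling and -0.099, -0.125 and -0.044 in log2(TPM + 1), against 0.053, 0.066 and 0.064 as reported. The share of called genes that were higher was 58.4% (upper quartile) and 27.8% (TPM) at 8 h, against 46.5% as reported, and 29.5% in TPM at 2 h, against 49.6%.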
